A study of Mus musculus with 33 samples.

Results

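The RNAs of 10 axon guidance receptors, Dcc, Robo1, Robo2, Ptprd, Ptprs, Ptprf, Nrp1, Nrp2, Plxna2 and Plxna4, were followed in cultured mouse motoneurons and in NSC34 cells. They were picked by gene symbol, out of 37926 gene records in the RNA-seq tables and 36194 genes in the crosslinking tables, and all 10 were found in both. Each had an RNA-seq record of its own, shared with no other gene.

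The study had 33 libraries. RNA-seq covered 22 of them, from primary motoneurons of strain CD-1 mice grown in microfluidic chambers that part axons from cell bodies and dendrites. Control cultures, labelled GFP, gave 4 axonal and 4 somatodendritic libraries, cultures with hnRNP R knocked down gave 3 and 3, and cultures with the noncoding RNA 7SK knocked down gave 4 and 4. Neither the knockdown constructs nor the animals' age is stated in the sources used here. The other 11 libraries were iCLIP, in which RNA crosslinked to hnRNP R by ultraviolet light is immunoprecipitated and read as cDNAs. They came from wild-type CD-1 motoneurons with antibody Ab1 (2 unfractionated libraries, 1 nuclear and 1 cytoplasmic) and from NSC34, an established mouse hybrid line of neuroblastoma and embryonic spinal cord cells (2 unfractionated, 1 nuclear and 1 cytoplasmic with Ab1, 1 nuclear and 1 cytoplasmic with a second antibody, Ab2, and 1 unfractionated control with IgG). The labels do not say whether the libraries of a group were separate cultures, and the spread behind each p-value may therefore be technical.

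Guidance receptors sit on the growth cone, the moving tip of an axon, and turn cues in the surroundings into local changes of the cytoskeleton. Dcc binds netrins and is best known for attraction, Robo1 and Robo2 bind Slit proteins and are best known for repulsion, and neuropilins (Nrp1, Nrp2) bind secreted semaphorins and pass the signal on through A-type plexins (Plxna2, Plxna4). Ptprd, Ptprs and Ptprf are the LAR-type receptor tyrosine phosphatases, which bind proteoglycans of the matrix and synaptic adhesion proteins. Motor axons use several of these systems to choose their path out of the spinal cord and into the limb.

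A few facts of the series bear on what follows. The authors' tables hold 1 FPKM (fragments per kilobase of transcript per 1000000 mapped) for each group and no value per library, so no spread within a group can be given. Hnrnpr was at 9.93 FPKM in control axons and 3.98 in the hnRNP R knockdown axons, and at 27.2 and 10.8 in cell bodies (authors' q = 0.310 in cell bodies, not tested in axons). In the authors' deposited tables Rn7sk, the 7SK RNA, fell from 9104 to 6370 FPKM in cell bodies of the 7SK knockdown (q = 0.00407), but stood at 2708 in control axons and 3508 in the axons labelled 7SK knockdown (q = 0.594), which goes against that label. Those axons are therefore called the axons labelled 7SK knockdown. In the hnRNP R knockdown Rn7sk rose from 9892 to 13493 FPKM in cell bodies (authors' q = 0.00865). It stood at 2638 in control axons and 4545 in hnRNP R knockdown axons (authors' q = 0.566). General neuronal markers summed to 477 to 490 FPKM in control axons and 1563 to 1698 in control cell bodies over 6 genes. Of 10 motoneuron markers 9 had a record, all but Slc18a3, and these summed to only 4.54 to 4.67 and 12.3 to 13.4 FPKM. Chat, Isl2 and Mnx1 were listed at 0 in all 8 group values, whereas Ret was above 0 in all 8 (1.39 to 7.88 FPKM). Calca reached 6.22 FPKM, Isl1 2.42, Lhx3 0.742, Prph 0.662 and Slc5a7 0.139. In control axons markers of astrocytes and radial glia summed to 726 to 745 FPKM, of other neurons to 43.7 to 44.9, of oligodendrocytes and Schwann cells to 26.7 to 27.4 and of endothelium to 2.99 to 3.08. Microglial markers (12 genes) summed to 11.4 to 11.7 FPKM in control axons, 30.2 in hnRNP R knockdown axons and 145 in the axons labelled 7SK knockdown, and markers of fibroblasts and smooth muscle (9 genes) to 787 to 811, 1023 and 344. The part of these cells in the receptor values was not tested.

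All 10 receptors were detected in control axons as well as in control cell bodies, and Ptprs was the most abundant of them in both compartments. In the control axons of the hnRNP R table the order was Ptprs at 34.5 FPKM, Ptprd at 23.8, Ptprf at 21.3, Robo2 at 15.1, Plxna2 at 10.3, Robo1 at 7.71, Nrp1 at 6.97, Plxna4 at 5.77, Dcc at 5.30 and Nrp2 at 4.60. The 3 phosphatases thus held the top of the list and the netrin receptor and Nrp2 its end, but without values per library no neighbours in this order can be called different. Ptprs ranked 727th among all records in axons and Nrp2 6868th. In control cell bodies Ptprs was at 48.4 FPKM, Robo2 at 33.6, Ptprd at 29.3, Plxna2 at 26.3, Ptprf at 22.2, Plxna4 at 18.6, Robo1 at 14.9, Nrp2 at 11.1, Dcc at 10.6 and Nrp1 at 10.6. In bulk libraries fewer cells of a type and less RNA per cell cannot be told apart.

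Relative to cell bodies, all 10 receptors had a lower FPKM in axons in the hnRNP R tables. The log2 ratio of the control axon to the control cell body level, computed with 0.1 FPKM added and without a test since the samples of the 2 compartments stand in separate tables, ran from -0.06 for Ptprf to -1.67 for Plxna4. Ptprf was thus at nearly the same FPKM in both compartments (21.3 and 22.2), and its ratio changed sign, to 0.09, with the control values of the 7SK tables. Ptprd was at -0.30 and Ptprs at -0.49, so the 3 phosphatases had the 3 ratios closest to 0. Nrp1, the neuropilin that binds semaphorin 3A, followed at -0.60, against -1.25 for its relative Nrp2. Robo1 and Dcc were at -0.94 and -0.99, Robo2 at -1.15, and both plexins were the lowest, Plxna2 at -1.35 and Plxna4 at -1.67. The median over the 10 receptors was -0.97. For comparison, the median was -0.58 over 13576 genes at 1 FPKM or more in either control group and -0.74 over 7770 genes at 5 FPKM or more in cell bodies. Of the lists of pathway genes, 33 measured guidance ligands had a median of -0.79, 47 other guidance receptors -0.88, 52 cytoplasmic effectors -0.86 and 22 partners of the phosphatases -1.11, so every one of these sets lay below the median of all genes. Cell markers also differed between the 2 control compartments. In the hnRNP R tables markers of fibroblasts and smooth muscle summed to 787 FPKM in axons and 112 in cell bodies. Those of astrocytes and radial glia summed to 726 and 606, general neuronal markers to 477 and 1698, and microglial markers to 11.4 and 63.3. Markers of other neurons summed to 43.7 and 186. The part of these cells in the ratios was not tested.

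**Figure D1:**
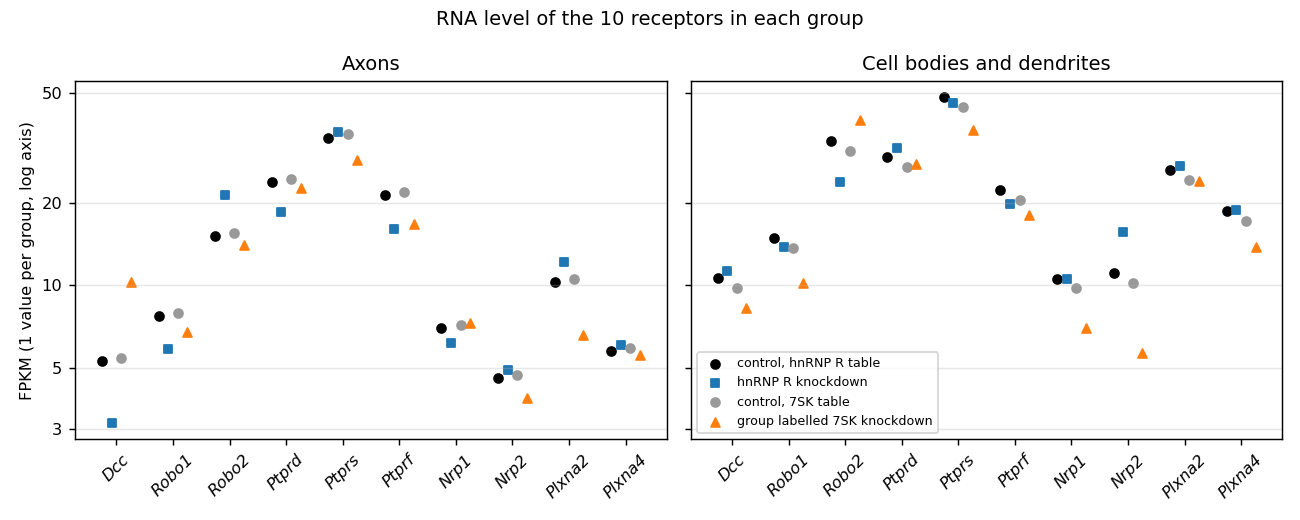
RNA level in FPKM (log axis, 1 value per group and no spread) of the 10 receptors in axons (left) and in cell bodies and dendrites (right). Black and grey circles are the same control libraries as scaled in the hnRNP R and the 7SK table, squares the hnRNP R knockdown and triangles the groups labelled 7SK knockdown. Ptprs is the highest receptor in both control compartments, at 34.5 and 48.4 FPKM in the hnRNP R tables.

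Knockdown of hnRNP R was then compared with control in axons. None of the receptors was called at the authors' q under 0.05, but only Ptprd and Ptprs had been tested. The authors tested 1749 genes in all and called 2, or 0.114%, so 0 of 2 is near that background. Ptprd was at 23.8 FPKM in control and 18.5 in knockdown axons (log2 ratio -0.36, p = 0.382, q = 0.828 in the authors' deposited table), and an approximate 95% interval read back from that p runs from -1.18 to 0.45. Ptprs was at 34.5 and 36.2 (q = 0.968 and a log2 ratio of 0.07 in the authors' deposited table). The 8 receptors the authors did not test lay below the level at which tests began, which was 21.8 FPKM in the higher group. Among these, Dcc had the log2 ratio farthest from 0 (-0.73 with 0.1 FPKM added), with 5.30 FPKM in control and 3.15 in knockdown axons, and Robo2 was at 15.1 and 21.3. Ptprf was at 21.3 and 16.1, Robo1 at 7.71 and 5.86, Nrp1 at 6.97 and 6.16, Plxna2 at 10.3 and 12.2, Nrp2 at 4.60 and 4.90 and Plxna4 at 5.77 and 6.07. With 0.1 FPKM added, 5 receptors had a ratio above 0 and 5 below, with a median of -0.05 against 0.03 over all 13119 genes at 1 FPKM or more.

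In cell bodies and dendrites of the same knockdown 5 receptors were tested and again none was called, against 27 of 2768 genes, or 0.975%. Robo2, the Slit receptor, had the lowest p of them: it was at 33.6 FPKM in control and 23.8 in knockdown cell bodies (log2 ratio -0.50, p = 0.102, q = 0.524 in the authors' deposited table), with an approximate 95% interval from -1.095 to 0.099. In axons its 2 values had the opposite order, 15.1 and 21.3, and the difference between compartments was not tested. Ptprs was at 48.4 and 46.1, Ptprd at 29.3 and 31.5, Ptprf at 22.2 and 19.8 and Plxna2 at 26.3 and 27.3, each with a q between 0.800 and 0.934 (authors' deposited table). For Ptprs the approximate interval was narrow, from -0.34 to 0.21. Of the receptors not tested, Nrp2 was at 11.1 and 15.7 FPKM, Robo1 at 14.9 and 13.8, Plxna4 at 18.6 and 18.9, Dcc at 10.6 and 11.3, and Nrp1 at 10.6 in both groups. The median log2 ratio over the receptors was 0.01, and 0.02 over all 13493 genes at 1 FPKM or more.

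The axons labelled 7SK knockdown gave no test of any receptor, since the authors' tests began at 35.5 FPKM in the higher group. Of 1009 genes tested 31 were called, or 3.07%. Dcc was at 5.45 FPKM in control and 10.3 in these axons, the log2 ratio farthest from 0 of the 10 (0.91 with 0.1 FPKM added), while hnRNP R knockdown axons had shown Dcc at 3.15. Plxna2 was at 10.5 and 6.61, Ptprf at 21.8 and 16.7, Ptprs at 35.5 and 28.5, Nrp2 at 4.73 and 3.90, Robo1 at 7.93 and 6.74, Robo2 at 15.5 and 14.0, Ptprd at 24.5 and 22.7 and Plxna4 at 5.93 and 5.59. Nrp1 stood at 7.15 and 7.27. The receptors' median log2 ratio was -0.19, with 8 below 0 and 2 above, against 0.07 over 13675 genes. Both knockdown comparisons of a compartment use the same control libraries.

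In cell bodies of the 7SK knockdown 3 receptors were tested and none was called, against 49 of 1954 genes, or 2.51%. Ptprs, the most abundant receptor, came closest to the threshold: it was at 44.5 FPKM in control and 36.9 in knockdown cell bodies (log2 ratio -0.27, p = 0.064, q = 0.369 in the authors' deposited table), with an approximate 95% interval from -0.56 to 0.02. From the authors' deposited table, Robo2 was at 30.9 and 40.1 FPKM (log2 ratio 0.37, q = 0.663) and Ptprd at 27.0 and 27.8 (log2 ratio 0.04, q = 0.962). The semaphorin receptors, none of them tested, were at 10.2 and 5.69 FPKM for Nrp2, 9.75 and 6.97 for Nrp1, 17.1 and 13.7 for Plxna4 and 24.2 and 23.9 for Plxna2. Robo1 was at 13.7 and 10.2, Dcc at 9.79 and 8.30 and Ptprf at 20.5 and 18.1. The median over the receptors was -0.25, with 8 below 0 and 2 above, beside 0.08 over 13479 genes. Neuronal markers summed to 1563 FPKM in the control and 1339 in the knockdown cell bodies, microglial markers to 58.3 and 87.6, markers of fibroblasts and smooth muscle to 103 and 176 and markers of other neurons to 171 and 132. Markers of astrocytes and radial glia summed to 558 and 608, and those of oligodendrocytes and Schwann cells to 82.7 and 103. The part of all these cells in the receptor values was not tested.

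**Figure D2:**
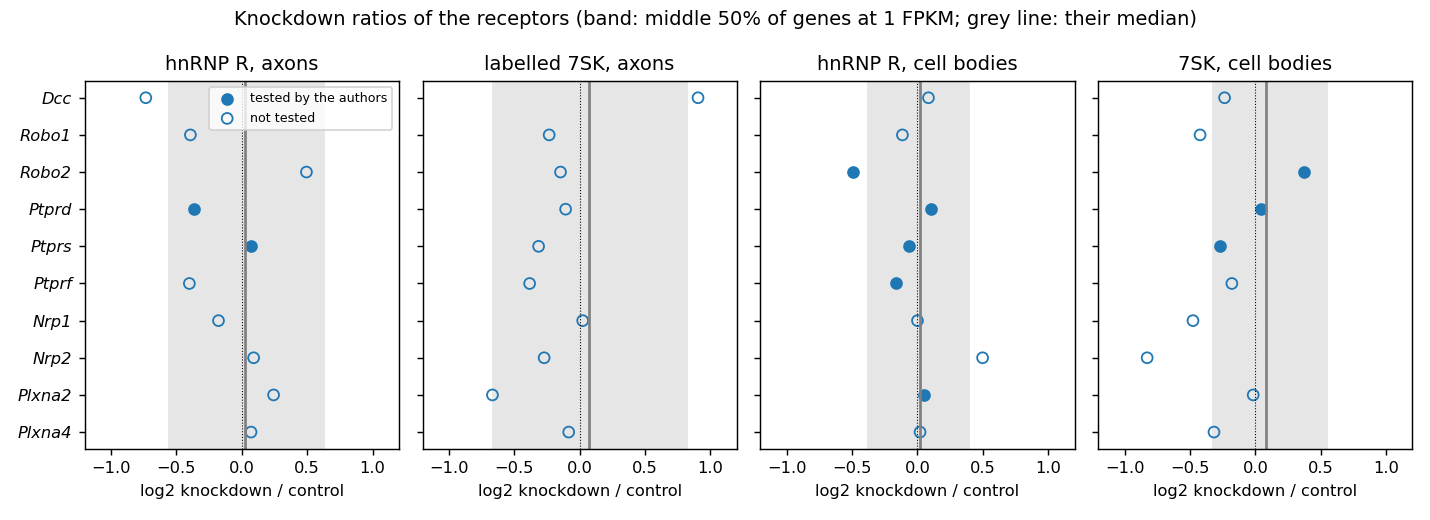
Log2 ratio of knockdown to control FPKM (0.1 FPKM added) for each receptor in the 4 comparisons. Filled points were tested by the authors and open points were not, the grey band holds the middle 50% of genes at 1 FPKM or more and the grey line is their median. The receptors' medians are -0.05, -0.19, 0.01 and -0.25 from left to right, and no filled point was called at q under 0.05.

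The other genes of the guidance pathways were scored from 4 lists, of ligands (36 genes), other guidance receptors (51), partners of the LAR-type phosphatases (25) and cytoplasmic effectors (52). Across the 4 comparisons their members were tested 142 times and called 3 times, each time lower in a knockdown. By comparison this was 1 of 30 in hnRNP R knockdown axons (0.114% of all tested genes were called there), 0 of 16 in the axons labelled 7SK knockdown (3.07%), 1 of 59 in hnRNP R knockdown cell bodies (0.975%) and 1 of 37 in 7SK knockdown cell bodies (2.51%). Ppfia3, a liprin that binds the cytoplasmic part of LAR-type phosphatases, fell from 29.1 to 7.37 FPKM in hnRNP R knockdown axons (q = 0.0437 with a log2 ratio of -1.98 in the authors' deposited table), as 1 of the 2 genes called there, and alone among 3 tested partners. Dpysl2, also known as CRMP2, which carries semaphorin signals to microtubules, fell from 203 to 143 FPKM in hnRNP R knockdown cell bodies (q = 0.00865 with a log2 ratio of -0.51 in the authors' deposited table), 1 of 27 tested effectors. Ptprz1, a receptor phosphatase of another subtype and a marker of glial progenitors, fell from 36.4 to 25.7 FPKM in 7SK knockdown cell bodies (q = 0.0112 with a log2 ratio of -0.50 in the authors' deposited table), 1 of 10 tested other receptors. No ligand was called in any table, with 2 to 10 of them tested, and no list member was called among the 16 tested in the axons labelled 7SK knockdown.

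The receptors differed widely in their iCLIP cDNA counts, among themselves and between the 2 kinds of cell. In the 2 unfractionated motoneuron libraries the 10 receptors held 6580 of 359005 and 4641 of 319381 cDNAs, or 1.83% and 1.45%. In the 2 NSC34 libraries they held 997 of 456721 and 181 of 99762, or 0.218% and 0.181%, and in the IgG library 105 of 36280, or 0.289%. Ptprd alone held 3380 and 2132 of the motoneuron cDNAs and ranked 3rd and 7th among all genes of these libraries. Counts are not scaled for gene length, and Ptprd has 2253 kb of intron, the 99.97th percentile of the 6215 genes with at least 5 FPKM in control cell bodies. On the mm9 genome it spans chr4:75587142-77857864 on the minus strand.

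In the main comparison, edgeR's quasi-likelihood test of the 2 motoneuron against the 2 NSC34 libraries called 3529 of 9567 genes at an adjusted p under 0.05, 36.9% of them. The higher calls were 23.1% and the lower 13.8%. The receptors were chosen with earlier results of these data known, so their share of calls cannot be weighed against that of all genes. Of the 10 receptors 8 were called, all higher in motoneurons. The split rests on the scaling, however. TMM, which assumes that most genes do not differ, raised the log2 values by about 0.92 above a comparison of plain library totals. With library totals, chosen as an alternative after the data were seen, 4868 genes were called (50.9%), 14.1% of all tested as higher and 36.8% as lower, and 7 of 10 receptors were called higher. Without the first, deeper NSC34 library 1957 genes and 7 receptors were called. Directions are given below at both scalings. NSC34 RNA was not measured here, so more crosslinking and more RNA in motoneurons cannot be told apart, and the motoneuron libraries have no IgG control of their own.

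Dcc, the netrin receptor, gave 682 and 748 cDNAs in motoneurons, or 1900 and 2342 per 1000000 cDNAs of the library (CPM). In NSC34 cells it gave 8 and 1, or 17.5 and 10.0 CPM, and in the IgG library 0 of 36280, which allows up to 82.7 CPM (the level of 3 cDNAs, for counting error only). The motoneuron and NSC34 values lay far apart: the log2 difference was 7.93 ± 0.38 (SE, edgeR adjusted p = 9.2e-23) by TMM and 7.01 ± 0.38 by library totals.

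The Slit receptors were both higher in motoneurons, but to different degrees. Robo2 had 1046 and 599 cDNAs in motoneurons (2914 and 1876 CPM), 11 and 2 in NSC34 (24.1 and 20.1 CPM) and 2 in the IgG library. Its log2 difference was 7.60 ± 0.38 (SE, edgeR adjusted p = 4.9e-22) by TMM and 6.66 by library totals. Robo1 had 175 and 179 (487 and 560 CPM) against 67 and 9 (147 and 90.2 CPM), with 10 in the IgG library (276 CPM). The 2 groups did not overlap, and its log2 difference was 2.93 ± 0.28 (SE, edgeR adjusted p = 1.9e-12) by TMM and 2.00 by library totals.

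The 3 LAR-type phosphatases, which are close relatives, differed widely among themselves. Ptprd had 3380 and 2132 cDNAs in motoneurons (9415 and 6675 CPM), but 8 and 2 in NSC34 (17.5 and 20.0 CPM) and 1 in the IgG library. By TMM its log2 difference was 9.70 ± 0.42 (SE, edgeR adjusted p = 6.5e-24), and by library totals 8.76. Ptprs, whose RNA was the more abundant in cell bodies (48.4 against 29.3 FPKM), had 136 and 122 cDNAs in motoneurons (379 and 382 CPM) and 108 and 23 in NSC34 (236 and 231 CPM). Its motoneuron values were higher than both NSC34 values (log2 difference 1.63 ± 0.26, SE, edgeR adjusted p = 1.2e-06 by TMM, and 0.70, adjusted p = 0.0204, by library totals). They were no higher than the IgG value of 15 cDNAs, or 413 CPM with an exact 95% interval of 231 to 682. With exonic cDNAs alone, an alternative also added after seeing the data, the difference of Ptprs was 0.78 with an adjusted p of 0.451. Ptprf had 24 and 23 cDNAs in motoneurons (66.9 and 72.0 CPM) and 34 and 6 in NSC34 (74.4 and 60.1 CPM). These ranges overlapped. The log2 difference of Ptprf was 0.90 ± 0.40 (SE, edgeR adjusted p = 0.0715) by TMM and turned to -0.02 by library totals.

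Of the neuropilins, Nrp1 was higher in motoneurons at both scalings and Nrp2 was not called at either. Nrp1 had 331 and 258 cDNAs in motoneurons (922 and 808 CPM), 54 and 13 in NSC34 (118 and 130 CPM) and 3 in the IgG library (82.7 CPM). The log2 difference of Nrp1 was 3.76 ± 0.28 (SE, edgeR adjusted p = 8.8e-16) by TMM and 2.83 by library totals. For Nrp2 the 2 motoneuron libraries themselves differed, with 10 and 38 cDNAs or 27.9 and 119 CPM, on either side of the NSC34 values of 105 and 90.2. Its log2 difference was 0.43 ± 0.42 (SE, edgeR adjusted p = 0.457) by TMM, -0.48 by library totals and -0.99 without the second motoneuron library. Without the first, it was called higher.

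The 2 plexins lay far apart. Plxna2 had 413 and 184 cDNAs in motoneurons (1150 and 576 CPM), a single one in the 2 NSC34 libraries together and 0 in the IgG library. The ratio of pooled CPM was 490, with a counting interval from 87.6 to 19375 that shows how little 1 cDNA can fix. Plxna2 was called higher at both scalings (edgeR adjusted p = 8.6e-20 by TMM). Plxna4 had 383 and 358 cDNAs in motoneurons (1067 and 1121 CPM), 658 and 116 in NSC34 (1441 and 1163 CPM) and 60 in the IgG library (1654 CPM). It gave the most cDNAs of the 10 receptors in NSC34 cells, and of the 5 unfractionated libraries the IgG control had its highest value (exact 95% interval 1262 to 2128 CPM). By TMM Plxna4 was called higher in motoneurons (log2 difference 0.66 ± 0.23, SE, edgeR adjusted p = 0.0222), whereas by library totals it was at -0.27 with an adjusted p of 0.348, so its direction depends on the scaling. The TMM call was lost without either NSC34 library: without the first the difference was again 0.66 ± 0.37 (SE, edgeR adjusted p = 0.177), and without the second it was 0.41 ± 0.33 (SE, edgeR adjusted p = 0.372).

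**Figure D3:**
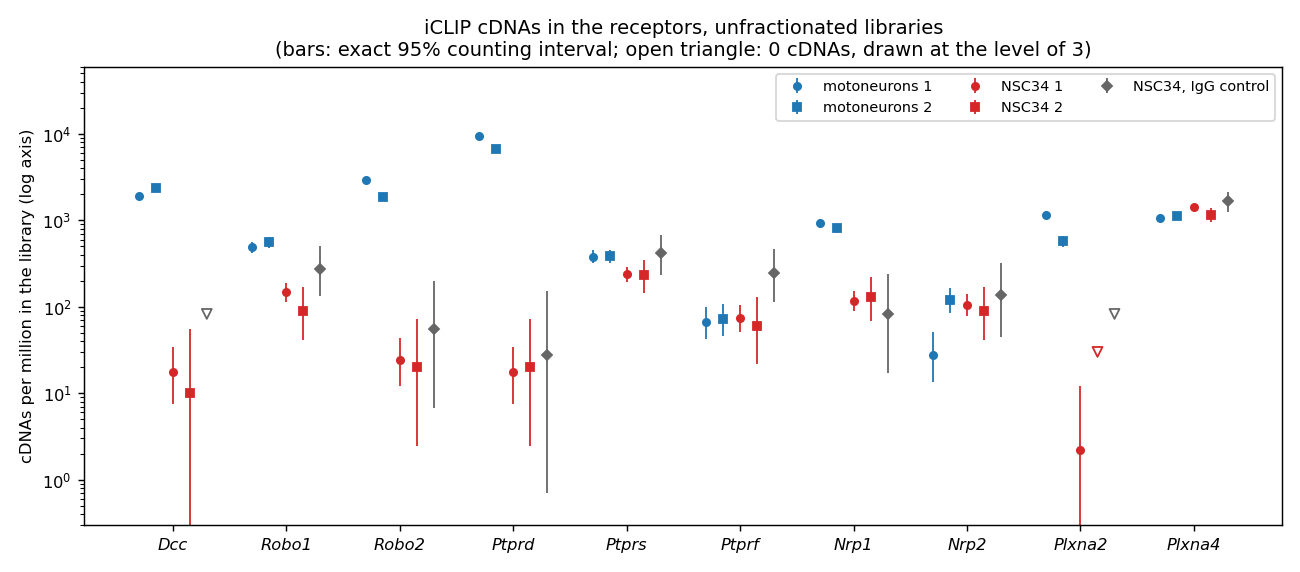
cDNAs per 1000000 (CPM, log axis) in the 10 receptors for the 5 unfractionated iCLIP libraries, with exact 95% intervals for counting error and open triangles at the level of 3 cDNAs where none was seen. Both motoneuron libraries lie at 1876 or above for Dcc, Robo2 and Ptprd, while both NSC34 libraries with the hnRNP R antibody stay at 24.1 or below. The IgG library of NSC34 cells is at 55.1 for Robo2 and 27.6 for Ptprd. For Plxna4 all 5 libraries lie between 1067 and 1654.

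**Figure D4:**
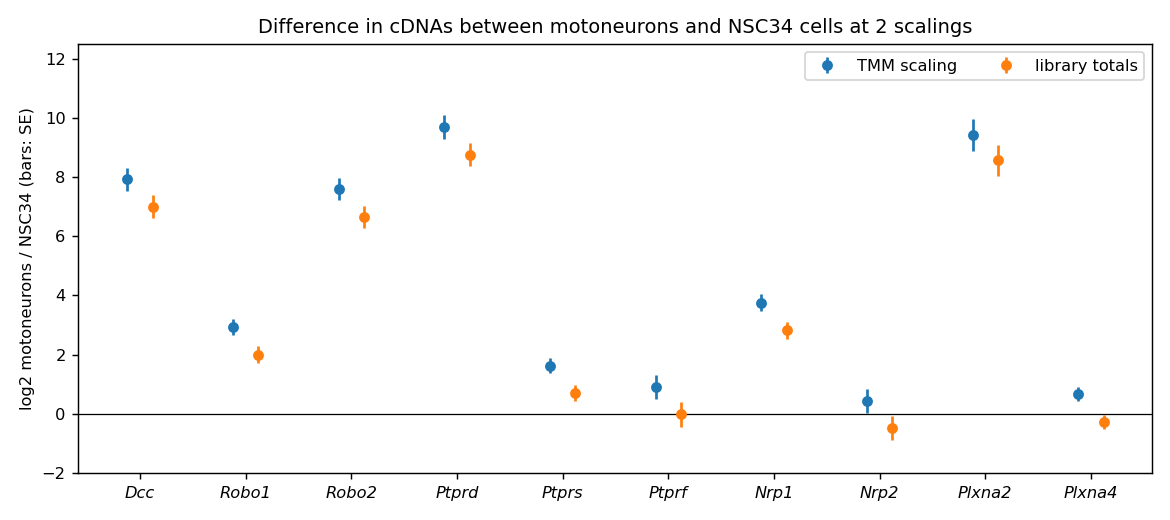
Log2 difference in cDNAs between motoneurons and NSC34 cells for each receptor, fitted by edgeR with TMM scaling (blue) and with library totals (orange). Bars are standard errors read back from that fit, which has 2 libraries a group and also holds the IgG library. Ptprf, Nrp2 and Plxna4 lie on either side of 0 depending on the scaling (0.90 and -0.02, 0.43 and -0.48, 0.66 and -0.27).

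Against the IgG control, no receptor was called in NSC34 cells. The same edgeR fit called 41 of 9567 genes between the 2 hnRNP R libraries and the IgG library, or 0.429%, with 13 higher and 28 lower. With a single IgG library, the spread of that arm is assumed to be that of the other groups' libraries. At an unadjusted p under 0.05 the fit gave 980 genes, and DESeq2 called 11. Only Ptprf among the receptors had an unadjusted p under 0.05 (0.0197, edgeR adjusted p = 0.387), and it was lower with hnRNP R than with IgG: 71.9 against 248 CPM, a ratio of 0.290 with a counting interval of 0.138 to 0.679. For Robo1 the ratio was 0.495 (0.255 to 1.07), for Ptprs 0.569 (0.333 to 1.05) and for Plxna4 0.841 (0.646 to 1.11). Nrp1 alone of the 8 receptors with IgG cDNAs had a ratio above 1, at 1.46 (0.477 to 7.24). Dcc and Plxna2 had none in the IgG library, and their NSC34 levels of 16.2 and 1.80 CPM lay below its limit of 82.7, so that no ratio can be formed. No receptor was thus detected above the IgG level in NSC34 cells. The IgG library is the smallest of the 5. Its file header names hnRNP R as the protein, although the label gives IgG, and carries the same library number as the header of the second NSC34 library.

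Most cDNAs of the receptors lay in introns, as did most cDNAs of the motoneuron libraries as a whole (88.1% and 86.5%). In motoneurons, with both libraries pooled, the intronic share ran from 89.4% for Ptprf (exact 95% interval 76.9% to 96.5%) and 90.8% for Plxna2 (88.2% to 93.0%) to 99.2% for Nrp1 (98.0% to 99.7%) and 99.7% for Dcc (99.2% to 99.9%). Ptprd was at 98.4%, Plxna4 at 97.4%, Robo2 at 96.7%, Robo1 at 96.0%, Ptprs at 94.96% and Nrp2 at 91.7%. The median was 92.8% over 2337 genes with at least 50 cDNAs, and 96.7% over the 1218 of these with at least 100 kb of intron. Introns make up 99.3% of the annotated length of Dcc, 92.6% of Plxna2, 89.3% of Ptprs and 89.0% of Ptprf.

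Per length, cDNAs were spread unevenly over exons and introns. In coding exons the density of cDNAs relative to introns was below 1 for 9 of the 10 receptors, from 0.315 for Ptprs (exact 95% interval 0.134 to 0.630) and Plxna4 (0.0648 to 0.925) to 0.881 for Ptprf, although the interval excluded 1 only for Ptprs, Plxna4 and Plxna2 (0.489, 0.283 to 0.790). Robo2 was the exception at 1.29 (0.947 to 1.73). The median of 1846 genes was 0.779. In the 3' UTR the density exceeded that of introns 7.64-fold for Robo1 (3.91 to 13.5), 5.68-fold for Ptprd (4.36 to 7.28), 4.59-fold for Plxna2 (3.21 to 6.38) and 2.09-fold for Plxna4 (1.19 to 3.42), intervals that exclude 1. Robo2 had 7 such cDNAs, at 0.851 (0.341 to 1.76), so the 2 Slit receptors had intervals that do not overlap. For Ptprs (5 cDNAs), Nrp2 (3) and Ptprf (1) the counts were too few to place the value on either side of 1. The median of 1847 genes was 2.83, and the middle 50% lay between 1.29 and 5.39. Dcc and Nrp1 have no length for a 3' UTR in these tables. The densities cover counting error only, and mature RNA and unspliced RNA were not measured apart.

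The receptors stood in another order per length of intron. Per kb of intron and in CPM, Ptprs (6.34) and Nrp1 (6.13) had the most cDNAs in motoneurons, ahead of Robo2 (4.64), Plxna2 (4.39) and Ptprd (3.55). Plxna4 followed at 2.47, Dcc at 1.94, Robo1 at 1.34, Ptprf at 0.836 and Nrp2 at 0.612. In the single IgG library, from NSC34 cells, this density was 6.77 for Ptprs, 3.58 for Plxna4, 2.23 for Ptprf and 1.30 for Nrp2. Each of these was above the motoneuron value. The IgG density was lower than in motoneurons for Robo1 (0.735), Nrp1 (0.589), Robo2 (0.109) and Ptprd (0.0122), and was 0 for Dcc and Plxna2. Ptprs has the shortest introns of the group, 57.0 kb in total, and Ptprd the longest, so the phosphatase with the most cDNAs per gene was not the one with the most per kb. Across 6215 genes with at least 5 FPKM in control cell bodies the median was 0.804, and 9 of the 10 receptors lay above it. The densities were divided further by the FPKM in control cell bodies, which comes from other libraries and does not part spliced from unspliced RNA. Nrp1 then stood at 0.579, in the 99.4th percentile of these genes, followed by Dcc at 0.182 (90.5th). Ptprf, at 0.0376, was in the 40th. Robo1 and Robo2 came closer together on this scale, at 0.0896 and 0.138.

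**Figure D5:**
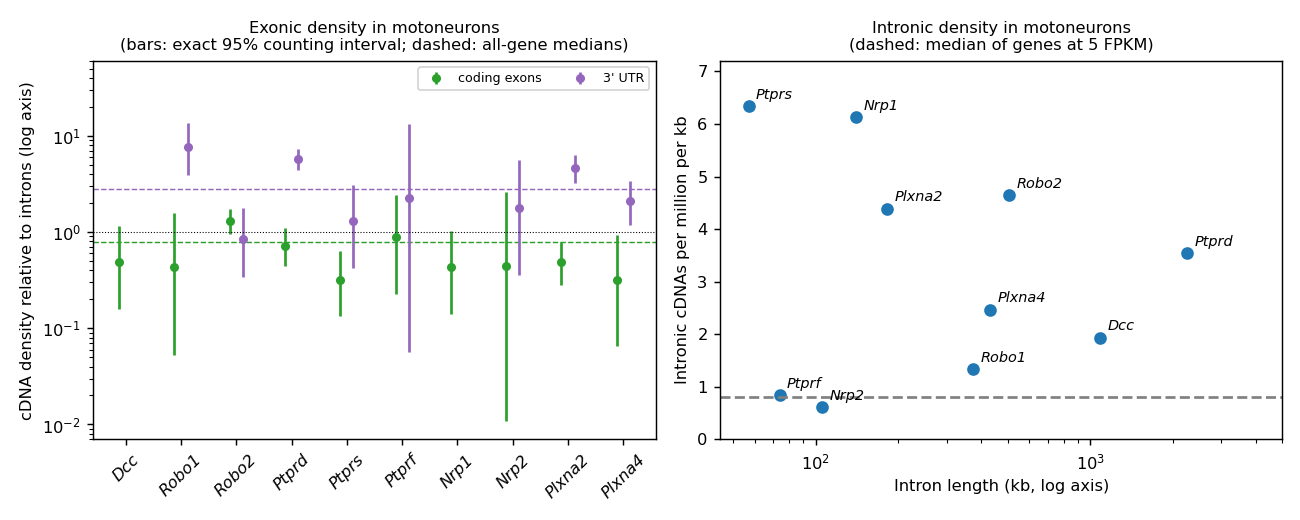
Left, density of cDNAs in coding exons and in the 3' UTR relative to introns in motoneurons (log axis, exact 95% counting intervals), with the medians of all genes dashed (0.779 and 2.83). Right, intronic CPM per kb against total intron length (log axis), where Ptprs and Nrp1 are highest at 6.34 and 6.13 and the dashed line marks the median of 0.804. The IgG library of NSC34 cells, not drawn, had 6.77 for Ptprs and 0.589 for Nrp1.

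The nuclear and cytoplasmic fractions gave no call. edgeR with each fraction pair as a block called 0 of 5177 genes, or 0%, with 27 at an unadjusted p under 0.05, and DESeq2 called 3. None was a receptor. On simulated counts of this design the fit recovered 4.00% of 8-fold changes, so it could hardly have called any, and the cytoplasmic NSC34 libraries hold only 3569 and 2796 cDNAs. In these 2 libraries the receptors together had 2 and 1 cDNAs. Within the single motoneuron pair (91302 nuclear and 194816 cytoplasmic cDNAs) values can be set side by side with counting intervals, without a test. Ptprs had 83 nuclear and 68 cytoplasmic cDNAs, a CPM ratio of 2.60 (1.87 to 3.64), and Nrp2 14 and 8, a ratio of 3.73 (1.46 to 10.3). Robo2 was on the other side with 131 and 474 cDNAs and a ratio of 0.590 (0.482 to 0.717), as were Ptprd at 0.769 (0.702 to 0.843) and Dcc at 0.792 (0.659 to 0.949). Robo1 was at 1.00, Plxna4 at 1.17, Plxna2 at 0.761, Nrp1 at 0.766 and Ptprf at 2.02, with intervals that include 1. The median of 1110 genes with at least 50 cDNAs in the pair was 0.938, and the middle 50% lay between 0.711 and 1.31. The cytoplasmic motoneuron library had an intronic share of 87.5%, close to the nuclear one at 91.5%, whereas the cytoplasmic NSC34 libraries had 26.4% and 43.0%.

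The genes most like Ptprd across the 11 iCLIP libraries were Adarb2, Csmd1, Dok6, Cntnap2 and Lsamp, with Pearson correlations of log2(CPM + 1) from 0.997 to 0.988, out of 556 genes with at least 500 cDNAs. Ptprf and Nrp2 had fewer cDNAs than that and were not scored. Of the 7 other receptors that were, Plxna2 had the highest correlation at 0.93, in 64th place, and Plxna4 the lowest at 0.41, in 341st place. These correlations are descriptive, since the libraries fall into motoneurons and NSC34 cells and differ in depth.

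The lists of other guidance genes were compared between motoneurons and NSC34 cells by TMM, where 23.1% of all tested genes were called higher and 13.8% lower. These lists too were chosen with earlier results of these data known, so their counts are descriptive. Of 42 tested other guidance receptors 26 were called higher and 2 lower, and of 24 ligands 14 and 4. Partners of the phosphatases gave 13 and 2 of 18, and effectors 22 and 4 of 49. By library totals, with 14.1% of all genes higher and 36.8% lower, the counts were 20 and 5, 11 and 6, 10 and 3, and 12 and 14, so that higher calls outnumbered lower ones in every list but the effectors. The medians by library totals were 0.91, 0.95, 2.29 and -0.23, against -0.85 over all genes. Unc5d, a netrin receptor that mediates repulsion, had 329 and 378 cDNAs in motoneurons and 0 and 1 in NSC34. Lrfn5, a synaptic adhesion protein that binds LAR-type phosphatases, had 651 and 591 against 1 and 2. Among those that went the other way at both scalings were Ret, the receptor subunit for GDNF family ligands, with 4 and 6 cDNAs in motoneurons and 245 and 46 in NSC34, and Slit3, a ligand of the Robo receptors, with 32 and 44 against 1145 and 179. The fits gave Ret a log2 difference of -4.14 and Slit3 one of -3.34 by TMM (edgeR adjusted p = 6.3e-13 and 2.3e-14).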

How the data were processed

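RNA-seq was analysed from the authors' deposited Cuffdiff tables: per the file headers they hold 1 FPKM per group, a log2 fold change, a p-value and a q-value per gene. Cufflinks 2.2.1, GRCm38 and mm9 are named per the submitters' processing notes, with no aligner stated in the sources used here. A gene counted as called when the authors had tested it and gave a q under 0.05, since single libraries could not be refitted. Ratios of levels used log2(FPKM + 0.1). Approximate intervals take the authors' p as that of a normal test. iCLIP files hold counts of cDNAs and crosslink sites per gene and segment, deposited by the authors, mapped to mm9 with Ensembl 59 annotation per the file headers. Library totals run from 2796 to 456721 cDNAs, and 1166 further columns were not used. Sense cDNAs per gene were tested with edgeR 4.0.16 (R 4.3.3; TMM, at least 10 cDNAs over the libraries of the fit, Benjamini-Hochberg). One fit held the 5 unfractionated libraries, the other the 6 fraction libraries with each pair of fractions, made from the same cells with the same antibody, as a block. Standard errors of edgeR log2 differences are the size of the difference divided by the square root of the test's F value. They rest on a spread shared by all libraries of the fit and moderated over genes. DESeq2 1.42.0 was an alternative. Counts of replicates differed beyond sampling noise (chi-square per degree of freedom 3.08 and 2.28). Densities of cDNAs per base of a segment (a signal) and the RNA-seq test statistics (a score) are as deposited by the authors. Segment lengths are the deposited sums divided by the deposited densities. Intervals of shares and ratios are exact (Clopper-Pearson) at 95% and cover counting error only. On simulated counts the motoneuron against NSC34 fit (9567 genes) recovered 100% of 8-fold and 90.0% of 3-fold changes, with 5.94% of its calls false. The simulation changed 100 genes at each size, as many up as down, among genes with at least 100 cDNAs. All genes were given the same spread. In the data 36.9% of genes were called. The simulation thus met the assumption of TMM by design. It cannot show which scaling holds or what share of the real calls is false.

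All 10 receptors were named. From each pathway list at most 4 called genes per direction were to be named, by size of change, and those given as examples here are fewer. The 5 genes of highest correlation with the receptor that had the most cDNAs in motoneurons were named. The members, the 4 pathway lists and the 8 marker lists were chosen with earlier results of these data known. Unfractionated motoneuron and NSC34 replicates share only a number, so no block was used there. Library totals, intronic cDNAs alone, exonic cDNAs alone and crosslink sites were alternatives chosen after seeing the data.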

Additional observations from a re-analysis of the deposited data

Results flagged for a closer look

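Antisense cDNAs, which no comparison above uses, stood above the IgG control in Dcc in a nuclear library of NSC34 cells. The IgG library is unfractionated and has no nuclear counterpart, so antibody and fraction differ together in what follows. The nuclear Ab1 library of NSC34 cells had 33 cDNAs on the strand opposite Dcc, or 682 CPM (exact 95% interval 469 to 957), against 6, or 165 CPM (60.7 to 360), in the IgG library. All 33 lay in Dcc introns, and by antisense cDNAs Dcc ranked 3rd among the genes of that library, which had only 2 sense cDNAs there. Over the 10 receptors and the 6 NSC34 libraries with hnRNP R antibodies, it was the only such value whose interval lay above that of the IgG library. The unfractionated NSC34 libraries had 112 and 34 antisense cDNAs, or 245 and 341 CPM, with intervals that overlap that of the IgG library. The unfractionated motoneuron libraries had 8 and 0. The cause was not tested.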

How the results depend on the processing

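Numbers of called genes moved with the setting more than the receptors did. At an unadjusted p under 0.05 the authors' tables gave 162, 183, 340 and 299 genes (hnRNP R axons, axons labelled 7SK knockdown, hnRNP R cell bodies, 7SK cell bodies), with no receptor among them. For motoneurons against NSC34, DESeq2 called 1530 genes and exonic cDNAs alone 981, the latter with 4 receptors (8 were tested there), and leaving out 1 library at a time gave 1957 to 3106 genes. With the replicate number as a block, in a fit of the 4 hnRNP R libraries without IgG, 3117 genes and 8 receptors were called. Without the block the same 4 libraries gave 3570 genes and 7 receptors, with Plxna4 at 0.56 (edgeR adjusted p = 0.0744). At library totals Ptprf was at -0.024, Nrp2 at -0.48 and Plxna4 at -0.27. With exonic cDNAs alone Ptprf was at -0.21 and Nrp2 at -0.56, and without motoneuron replicate 2 Nrp2 was at -0.99, against 1.01 and a call without motoneuron replicate 1. The other 7 receptors kept their direction in every alternative run, and only Ptprs, with exonic cDNAs alone, lost its call. Plxna4 lost its call in 8 of 13 alternatives and turned in 1 more. For NSC34 against IgG the counts were 75 with DESeq2 size factors, 11 with DESeq2, 74 with library totals, 9 with exonic cDNAs, 26 with crosslink sites and 34 to 38 without 1 NSC34 library, and none held a receptor. For nuclear against cytoplasmic they were 1 with DESeq2 size factors, 3 with DESeq2, 1 with library totals, 3 with exonic cDNAs, 0 without the pairing as a block (no replicate block) and 0 to 6 without 1 pair. The causes were not tested. The smallest fraction library has 2796 cDNAs and the IgG library 36280.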
